A study of Mus musculus with 8 samples.

Results

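Lung group 2 innate lymphoid cells (ILC2s) from mice labelled IL-33 plus dopamine were compared with lung ILC2s from mice labelled PBS in a single droplet experiment. Each cell carried an antibody tag (hashtag) that named its sample. All cells that the deposited cell table assigns to IL-33_DA (hashtags 6, 7 and 8) or to PBS (hashtags 1 and 2) were taken, 4983 of the 9076 cells in that table. Of these, 3924 cells were IL-33 plus dopamine and 1059 were PBS, and the other 4093 cells, labelled IL-33 (hashtags 3, 4 and 5), serve as the third group. All donors were male wild type C57BL/6 mice, and the agents were given into the nose on 3 consecutive days. The labels describe the pool as IL-33 together with dopamine or with its vehicle PBS, so that the plain PBS group is known by its name in the cell table alone, and no label states that it went without IL-33. No label says how many mice lie behind a hashtag. Each hashtag was counted as 1 replicate, and p-values therefore measure the spread between hashtags, which may be technical.

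ILC2s are tissue lymphocytes without antigen receptors. IL-33, an alarmin set free by damaged epithelium, binds the receptor ST2 on their surface and acts through NF-kB and AP-1 to switch on type 2 cytokines, chief among them interleukin-5 and interleukin-13, and the repair factor amphiregulin. Dopamine is a catecholamine transmitter whose receptors couple to G proteins that raise or lower cyclic AMP. The comparison asks which part of the IL-33 response is present when dopamine is given with it, and a direct test of IL-33 plus dopamine against IL-33 is needed beside it, because both comparisons with PBS share the same 2 PBS hashtags.

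The sum of UMIs (counted RNA molecules) was smallest for hashtag 1, at 1397576 from 311 cells, and largest for hashtag 3, at 9268932. The median cell held 4330 and 4317.5 UMIs in the PBS hashtags, 4875, 5231 and 4201 in hashtags 6, 7 and 8, and between 4859.5 and 5692 with IL-33. Group means of those medians differed by 445 UMIs between IL-33 plus dopamine and PBS (exact two-sided permutation p = 0.6, where 3 against 2 hashtags allow no p under 0.2), and the median mitochondrial share was 4.11% in both. Cells came from 1 droplet channel, and no barcode appeared under more than 1 hashtag. The 15 ILC2 markers summed to between 9191 and 11171 CPM (UMIs scaled to a hashtag total of 1000000) in the 5 hashtags compared. Gata3, the lineage factor of ILC2s, had a UMI in 87.3% to 92.7% of the cells of each hashtag, whereas Lyz2, an abundant myeloid transcript, had one in at most 0.396%.

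Hashtag 8 did not sit with the other IL-33 plus dopamine hashtags. Over 4895 genes, its highest correlation was with PBS hashtag 2 (Pearson's r = 0.99 on log2 CPM across genes, which are not independent replicates). Hashtags 1 and 2 were each closest to hashtag 8, at r = 0.9868 and 0.99. With hashtags 6 and 7 of its own group, hashtag 8 had r = 0.9879 and 0.9875, which is above its value with PBS hashtag 1. On the first principal component, which held 39.7% of the variance, hashtags 1, 2 and 8 had scores of 13.3, 4.3 and 8.0, while hashtags 3 to 7 lay between -8.9 and -3.5. The same 3 hashtags had the lowest median UMIs and the fewest cells in the authors' cluster 5, with 8, 23 and 26 cells against 84 to 327 in the others. The part of depth and of cell mix in that position was not tested, nor whether the hashtag bears the right label. In a few genes described later, hashtag 8 lay with hashtags 6 and 7 and above PBS, as with Il5 (770 CPM) and Foxn3 (140 CPM). Values are therefore given for each hashtag, and main results are also given without hashtag 8. Leaving out the hashtag nearest to PBS enlarges differences from PBS by its construction.

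**Figure D1:**
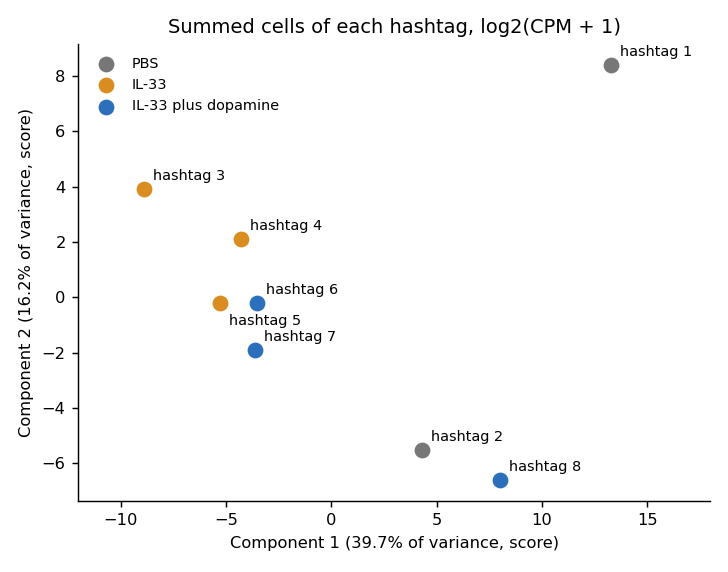
First and second principal component scores of the 8 hashtags, from log2(CPM + 1) of their summed cells over 4895 genes; grey is PBS, orange is IL-33 and blue is IL-33 plus dopamine. On component 1, hashtag 8 (blue, score 8.0) lies with the grey PBS hashtags at 13.3 and 4.3, away from hashtags 6 and 7 at -3.5 and -3.6. On component 2, hashtag 8 at -6.6 lies beside hashtag 2 at -5.5 and far from hashtag 1 at 8.4, with hashtags 6 and 7 at -0.2 and -1.9.

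No single gene passed between IL-33 plus dopamine and PBS when all cells of a hashtag were summed. By edgeR's quasi-likelihood test with Benjamini-Hochberg adjustment, 0 of 10820 genes had an adjusted p under 0.05, as with DESeq2 and limma-voom, and 639 genes (5.91%) had an unadjusted p under 0.05, 333 higher (3.08%) and 306 lower (2.83%). Without hashtag 8, 4 genes passed: Abhd8 was higher (log2 fold change 0.84), and Ptma (-0.38), Lmo4 (-0.64) and Fosb (-0.55) were lower. Ranges of the 2 groups did not overlap for 14.9% of all tested genes in the higher and 9.03% in the lower direction, and these shares are the background for the counts of list members that follow. The same shares for IL-33 against PBS were 20.8% and 13.5%. In a sum over cells, fewer cells of a kind and less RNA per cell cannot be told apart.

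Among the fixed genes for secreted factors, Areg and Il5 lay above PBS in all 3 dopamine hashtags. Areg encodes amphiregulin, an EGF family ligand through which ILC2s act on epithelial repair (chromosome 5, 91139599 to 91148432, plus strand, mm10). Its level was 1056 and 954 CPM in the PBS hashtags, 1278, 1381 and 1590 CPM with IL-33, and 1383, 1585 and 1598 CPM with IL-33 plus dopamine. Every hashtag of both IL-33 groups lay above both PBS hashtags. The log2 fold change over PBS was 0.57 ± 0.10 (SE, 95% interval 0.35 to 0.79, adjusted p = 0.245), higher in 3 of 3 hashtags, and 0.51 without hashtag 8. Over all 19 alternatives it stayed between 0.49 and 0.65, with adjusted p from 0.0663 to 0.769. IL-33 over PBS gave 0.46, and IL-33 plus dopamine over IL-33 gave 0.11 with an interval of -0.08 to 0.30.

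Il5, the eosinophil growth factor (chromosome 11, 53720794 to 53725106, plus strand), had 437 and 400 CPM with PBS, 356, 560 and 501 CPM with IL-33 and 546, 733 and 770 CPM with IL-33 plus dopamine. The 3 dopamine hashtags lay above both PBS hashtags, while the IL-33 hashtags overlapped with PBS. The log2 fold change over PBS was 0.68 ± 0.18 (SE, adjusted p = 0.767), and the direct difference from IL-33 was 0.54 with an interval of 0.21 to 0.87 (adjusted p = 0.331). Hashtag 8, which lay with PBS on the first principal component, had the highest Il5 level of all 8 hashtags. Il5 was highest in the authors' cluster 3, which held 296 of the 1475 cells of hashtag 8. It held 143 of 1252 and 204 of 1197 in hashtags 6 and 7, and 64 of 311 and 85 of 748 in PBS. The IL-33 hashtags had 115 of 1485, 110 of 1092 and 181 of 1516 there. Within cluster 3, hashtags 6, 7 and 8 had 2644, 2560 and 2622 CPM of Il5. The part of cluster mix in the summed level was not tested. The annotation places a predicted gene on the other strand across Il5.

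Il13, the cytokine of mucus and airway reactivity, had 324 and 266 CPM with PBS, 274, 316 and 372 CPM with IL-33 and 306, 419 and 347 CPM with IL-33 plus dopamine. These ranges overlapped, and the log2 difference from PBS was 0.25 with an interval of -0.07 to 0.58. Il4 lay between 35.8 and 56.9 CPM in all hashtags. Csf2, which encodes the myeloid growth factor GM-CSF, had 1083 and 860 CPM with PBS, 1612, 1336 and 1516 CPM with IL-33 and 1279, 1423 and 1042 CPM with IL-33 plus dopamine. All IL-33 hashtags were above PBS, whereas hashtag 8 fell inside the PBS range. The Csf2 log2 fold changes over PBS were 0.58 for IL-33 and 0.33 for IL-33 plus dopamine, and the direct difference was -0.26 with an interval of -0.48 to -0.03 (adjusted p = 0.487). Il9 was counted too rarely to be tested, at no more than 1.08 CPM. Calca, the neuropeptide CGRP, had 1483 CPM in hashtag 8 but 833 and 785 CPM in hashtags 6 and 7, with 1267 and 891 CPM in PBS.

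Of 23 tested genes on the list of type 2 effectors and growth factors, 5 were above PBS without overlap and 1 was below, with a median log2 fold change of 0.13 against 0.00744 over all tested genes. IL-33 against PBS also gave 5 above and 2 below. Further members, named here after their values were seen, were Il2 (140 and 110 CPM in PBS, 176, 148 and 188 CPM with IL-33 plus dopamine) and the neutrophil chemokine Cxcl3 (50.1 and 44.1 CPM, then 60.5, 71.1 and 65.1 CPM). Tnfsf11, which encodes RANK ligand, was the member below PBS, at 318 and 260 CPM in PBS and 213, 214 and 234 CPM with IL-33 plus dopamine. Its level with IL-33 alone was 181 to 235 CPM, and the direct difference was 0.08 with an interval of -0.15 to 0.30.

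**Figure D2:**
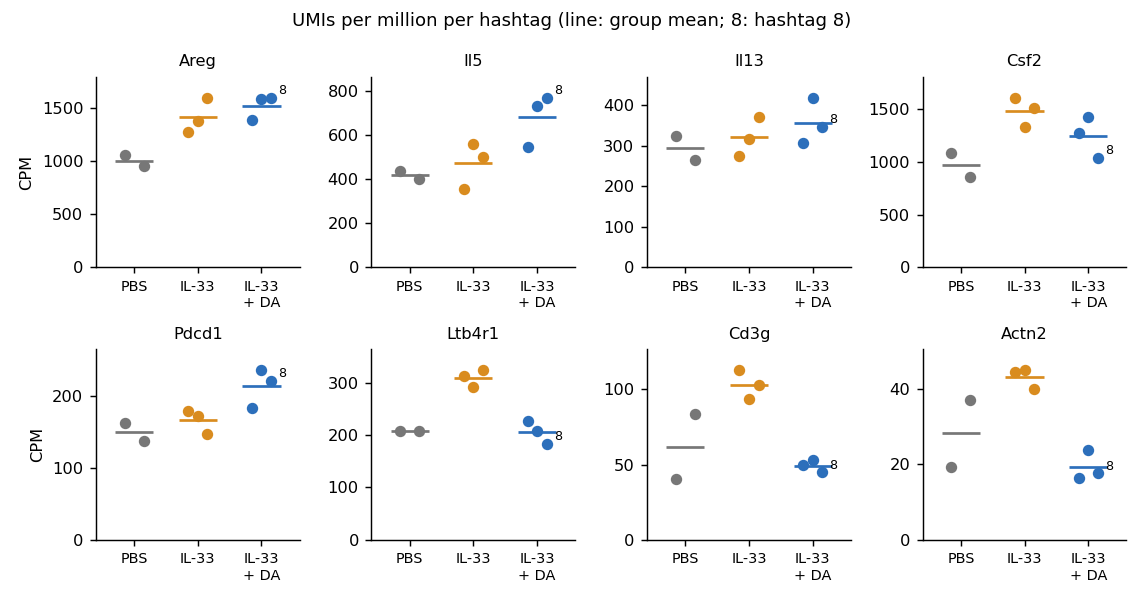
Summed UMIs scaled to a total of 1000000 (CPM, axis from 0) of 8 genes in each hashtag, with the group mean as a line and hashtag 8 marked. Areg and Il5 lie above PBS in all 3 IL-33 plus dopamine hashtags, while Ltb4r1, with 184 to 227 CPM, lies beside the PBS value of 208 CPM and below the IL-33 hashtags.

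Cells were also counted as having or lacking a transcript, after each cell was thinned to 2000 UMIs so that depth was equal, which left out 4 cells. Areg had a UMI in 55.0% and 47.0% of PBS cells and in 53.6%, 58.6% and 60.4% of IL-33 plus dopamine cells, a difference in means of 6.55 percentage points (6.97 without thinning). Hashtag 6 lay inside the PBS range, so the groups overlapped. Among cells with an Areg UMI, the thinned mean was 3.73 and 3.75 UMIs with PBS and 4.88, 4.87 and 4.93 with IL-33 plus dopamine. That level per positive cell did not overlap, and IL-33 cells had 4.55 to 5.22. Il5 had a UMI in 23.2% and 19.7% of PBS cells and in 20.9%, 31.1% and 27.1% of IL-33 plus dopamine cells, with 3.43 and 3.71 against 4.36, 4.22 and 4.94 UMIs per positive cell. The share of cells with an Il13 UMI differed by 0.404 points after thinning and by 3.9 without it. As a measure of free RNA, Lyz2 and the epithelial transcript Sftpc had a UMI in at most 0.339% and 0.402% of thinned cells.

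**Figure D3:**
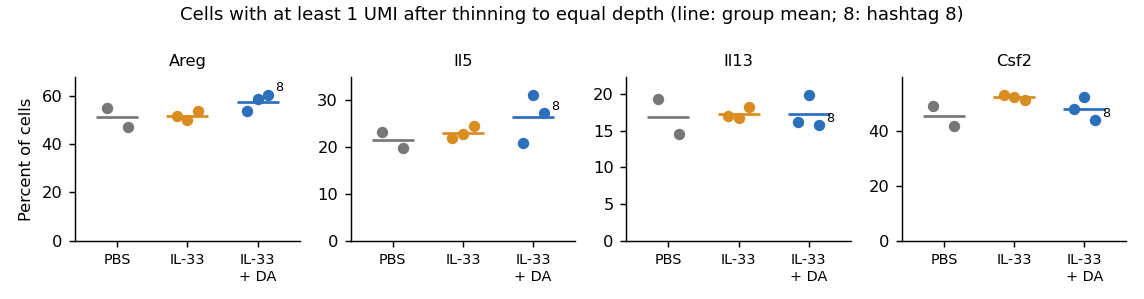
Percent of cells of each hashtag with at least 1 UMI of Areg, Il5, Il13 or Csf2 after thinning to 2000 UMIs per cell (axes from 0), with the group mean as a line. For Areg, hashtags 7 and 8 at 58.6% and 60.4% lie above both PBS hashtags, and hashtag 6 at 53.6% lies between them.

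Receptors that bring IL-33 and other signals to ILC2s had a median close to PBS. Il1rl1 was at 825 and 774 CPM in PBS and 705, 801 and 820 CPM with IL-33 plus dopamine, a log2 difference of -0.07 (interval -0.27 to 0.12). Il2ra, the high-affinity chain of the interleukin-2 receptor, was at 411 and 326 CPM in PBS and at 299, 262 and 350 CPM with IL-33 plus dopamine, with overlap through hashtag 8 (log2 fold change -0.30, adjusted p = 0.825). Il18rap, a chain of the interleukin-18 receptor, had 56.5 and 46.8 CPM in PBS against 65.9, 97.8 and 62.0 CPM. Il17rb, the interleukin-25 receptor, had 96.6 and 104 CPM against 86.0, 79.4 and 94.6 CPM. On the list of 35 tested receptors, 5 were above and 4 below PBS without overlap, and the median was -0.05. Without hashtag 8 the counts were 7 and 8, beside backgrounds of 27.1% and 13.9% of all genes. IL-33 against PBS gave 3 above and 11 below, with a median of -0.17. Nmur1, which encodes a receptor for neuromedin U, had 2.86 and 2.08 CPM in PBS and 1.35, 1.45 and 1.23 CPM with IL-33 plus dopamine. Dopamine receptor genes were not analysed here.

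Genes of ILC2 identity overlapped with PBS or differed little. Gata3, the factor that defines the lineage, had 970 and 836 CPM in PBS and 838, 918 and 1116 CPM with IL-33 plus dopamine (log2 difference 0.06, interval -0.20 to 0.31). Rora, another lineage factor, had 2112 and 1777 CPM against 1477, 1902 and 2127 CPM. Klrg1, a receptor of mature ILC2s, had 120 and 110 CPM in PBS, 141 to 147 CPM with IL-33 and 113, 108 and 102 CPM with IL-33 plus dopamine. Its direct difference between the IL-33 groups was -0.41 with an interval of -0.57 to -0.25 (adjusted p = 0.0933 by edgeR and 0.0293 by DESeq2). Arg1, the arginase of ILC2s, had 300 and 237 CPM in PBS and 223, 263 and 170 CPM with IL-33 plus dopamine. Pdcd1, which encodes the inhibitory receptor PD-1, did not overlap with PBS, with 163 and 138 CPM in PBS and 184, 237 and 222 CPM with IL-33 plus dopamine (log2 fold change 0.50 ± 0.14 SE, adjusted p = 0.767). With IL-33 alone Pdcd1 had 148 to 179 CPM, and the direct difference was 0.37 with an interval of 0.13 to 0.61.

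Of the 29 genes fixed by name, 27 were in the table and 26 could be tested. Areg, Il5, Pdcd1 and Il1r2 were above PBS without overlap, and Nmur1 was below. These are 4 and 1 of the 26, beside 14.9% and 9.03% of all tested genes. The higher count is near its background and the lower count is under its own. Il1r2 and Nmur1 were counted in few UMIs. Il1r2, which encodes a decoy receptor for interleukin-1, had 0.716 CPM and no UMI in the PBS hashtags, 8.11, 13.4 and 1.08 CPM with IL-33 plus dopamine, and 3.95 to 25.2 CPM with IL-33. The low value was that of hashtag 8.

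AP-1 genes, which act downstream of IL-33, gave counts that depended on hashtag 8. Of 27 tested AP-1, immediate early and dissociation genes, 2 were above and 2 below PBS without overlap. Without hashtag 8 the numbers were 2 and 13, beside backgrounds of 27.1% and 13.9% of all genes, and the median moved from -0.08 to -0.23. IL-33 against PBS gave 4 above and 11 below, with a median of -0.20. Fosb, an AP-1 subunit, had 2168 and 1890 CPM in PBS, 1477 to 1688 CPM with IL-33, and 1544, 1346 and 2278 CPM with IL-33 plus dopamine, so that hashtag 8 alone stood above PBS. Atf3, a stress-induced partner of AP-1, had 305 and 231 CPM in PBS, 138, 133 and 182 CPM with IL-33 and 166, 177 and 212 CPM with IL-33 plus dopamine. All hashtags of both IL-33 groups were below PBS (log2 fold change -0.55 ± 0.16 SE, adjusted p = 0.807). Egr3 was on the other side, at 73.0 and 69.1 CPM in PBS and 105, 107 and 117 CPM with IL-33 plus dopamine. Cell dissociation is known to induce many of these genes, and its part was not tested.

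NF-kB subunits, inhibitors and targets (32 tested) had 2 members above and none below PBS, with a median of -0.02. Nfkbia, the inhibitor that NF-kB itself induces, had 2655 and 2195 CPM in PBS and 2197, 2006 and 2390 CPM with IL-33 plus dopamine, with overlap. Bcl2a1d, a survival gene of this pathway, had 90.2 and 81.3 CPM against 98.5, 142 and 107 CPM. The cAMP and CREB list (21 tested) had 1 member above and none below. Without hashtag 8 it had 1 above and 7 below, beside backgrounds of 27.1% and 13.9% of all genes. IL-33 against PBS gave 4 above and 7 below on this list, with a median of -0.12. Among 25 JAK-STAT and SOCS genes, 8 were above and 3 below PBS without overlap, while IL-33 against PBS gave 2 above and 6 below. Jak2, a kinase of cytokine receptors, had 148 and 144 CPM in PBS, 136, 137 and 136 CPM with IL-33 and 154, 189 and 184 CPM with IL-33 plus dopamine (direct log2 difference 0.37, interval 0.17 to 0.56, adjusted p = 0.231). Jak3, the kinase of the common gamma chain, had 8.59 and 14.9 CPM in PBS and 17.3 to 20.5 CPM with IL-33 plus dopamine, beside 20.7 to 21.6 CPM with IL-33. Cish, a feedback target of STAT5, differed by -0.02 (interval -0.22 to 0.17).

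Mitochondrial genes, which the series title brings up, lay near PBS as groups. Complex I subunits (36 tested) had 5 members above and 3 below PBS without overlap and a median of -0.02. Nuclear subunits of complexes II to V (40 tested) had 1 above and 5 below with a median of -0.05, and the 13 subunits encoded in mitochondrial DNA had 0 above and 3 below with a median of -0.06. Mitochondrial ribosome, import and dynamics genes (46 tested) had 5 above and 6 below, and TCA cycle genes (23 tested) had 4 above and 3 below. Atp5g1, a subunit of the ATP synthase ring, was one of the lower members, with 175 and 203 CPM in PBS, 162 to 184 CPM with IL-33 and 162, 166 and 161 CPM with IL-33 plus dopamine. Mt-Atp8, which mitochondrial DNA encodes, had 87.3 and 80.4 CPM in PBS and 59.0, 68.5 and 69.8 CPM with IL-33 plus dopamine (log2 fold change -0.37 ± 0.12 SE, adjusted p = 0.813). Mrpl36 of the mitochondrial ribosome pointed the other way, with 17.9 and 28 CPM in PBS and 41.0, 40.9 and 33 CPM. In the direct comparison, 0 of the 46 ribosome, import and dynamics genes were above IL-33 and 8 were below without overlap, beside backgrounds of 7.81% and 6.87%.

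Other metabolic lists held single genes at low unadjusted p. Aldh2, the mitochondrial enzyme that clears acetaldehyde (chromosome 5, 121566027 to 121593824, minus strand), had the smallest p of all genes and was named for it after the values were seen. It had 24.3 and 24.7 CPM in PBS, 30.5, 29.2 and 32.8 CPM with IL-33 and 43.2, 43.4 and 39.7 CPM with IL-33 plus dopamine. The 3 groups did not overlap with each other. The log2 fold change was 0.74 ± 0.13 (SE, adjusted p = 0.245) against PBS and 0.45 with an interval of 0.25 to 0.64 against IL-33 (adjusted p = 0.146). Plin2, a coat protein of lipid droplets, had 77.3 and 86.4 CPM in PBS, 79.1 to 92.3 CPM with IL-33 and 66.8, 41.3 and 67.6 CPM with IL-33 plus dopamine. Lss, an enzyme of cholesterol synthesis, had 8.59 and 8.34 CPM in PBS and 4.80, 4.51 and 4.01 CPM with IL-33 plus dopamine. The list medians for glycolysis (21 tested) and for cholesterol synthesis (21 tested) were -0.01 and 0.06.

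Chaperones and ribosomal proteins had more members below PBS than above. Of 25 heat-shock chaperones, 0 were above and 8 below PBS without overlap, with the lowest median of the 34 functional lists with at least 10 tested members, -0.11. The direct comparison with IL-33 gave 0 above and 1 below, and IL-33 against PBS 2 above and 2 below. Hspa5, the chaperone of the endoplasmic reticulum, had 556 and 515 CPM in PBS, 419 to 474 CPM with IL-33 and 389, 471 and 476 CPM with IL-33 plus dopamine. Hsp90aa1 had 570 and 407 CPM in PBS and 406, 354 and 331 CPM with IL-33 plus dopamine, where the PBS hashtags differed more from each other than hashtag 2 did from hashtag 6. Of 63 cytosolic ribosome genes, 1 was above and 15 were below, at a median of -0.04. Without hashtag 8 there were 19 above and 19 below, beside backgrounds of 27.1% and 13.9% of all genes. IL-33 against PBS gave 27 above and 10 below on this list, beside 20.8% and 13.5% of all genes. The direct comparison with IL-33 gave 1 above and 22 below, beside 7.81% and 6.87%. Sec11c, a signal peptidase subunit, had 353 and 352 CPM in PBS and 277, 306 and 290 CPM with IL-33 plus dopamine, and was one of 5 lower and 0 higher among 30 genes of the unfolded protein response and secretion.

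Cell division and cytoskeletal genes were compared in all 3 groups. Among 43 tested genes of DNA replication and mitosis, 7 were above and 5 below PBS with IL-33 plus dopamine, and 15 were above and 3 below with IL-33. The direct comparison gave 3 above and 6 below IL-33, with a median of -0.11. Mki67, the marker of cycling cells, had 4.29 and 2.08 CPM in PBS, 12.5, 10.3 and 8.49 CPM with IL-33 and 4.65, 9.46 and 2.62 CPM with IL-33 plus dopamine. Stmn1, which destabilizes microtubules, had 10.7 and 12.8 CPM in PBS, 22.8, 25.9 and 22.9 CPM with IL-33 and 16.7, 15.1 and 14.5 CPM with IL-33 plus dopamine. Its 3 groups did not overlap, and the direct log2 difference was -0.62 with an interval of -0.86 to -0.38 (adjusted p = 0.0951). Of 36 actin, S100, annexin and vimentin genes, 5 were above PBS without overlap with IL-33 plus dopamine and 16 with IL-33. The direct comparison gave 0 above and 1 below IL-33 without overlap, at a median of -0.10 with 6 of the 36 members above 0. At an unadjusted p under 0.05 by edgeR, 1 was higher and 10 were lower than IL-33, beside 4.89% and 4.68% of all tested genes. Vim, which encodes vimentin, had 465 and 495 CPM in PBS, 933, 689 and 868 CPM with IL-33 and 554, 704 and 492 CPM with IL-33 plus dopamine (direct log2 difference -0.51, interval -0.77 to -0.25, adjusted p = 0.208). Hashtag 7 overlapped with IL-33 and hashtag 8 with PBS.

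**Figure D4:**
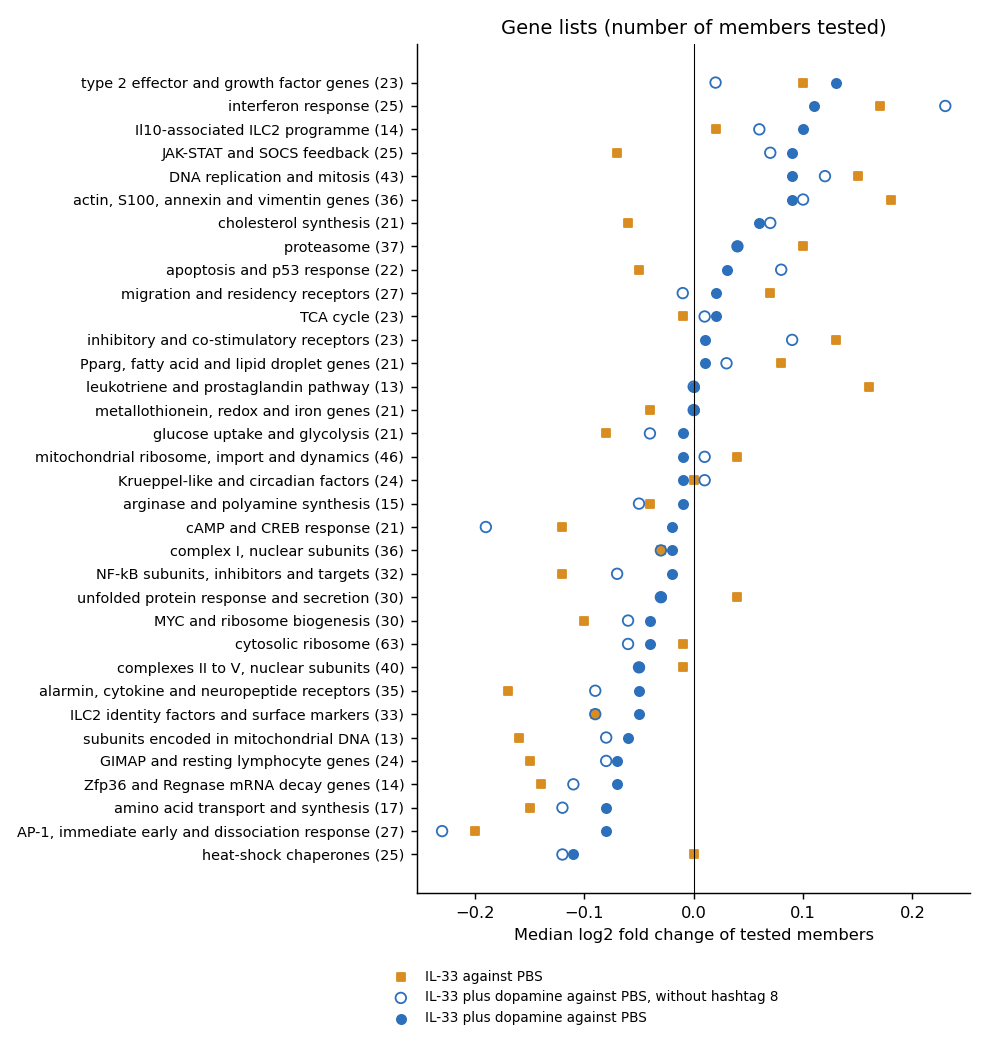
Median log2 fold change of the tested members of each functional list with at least 10 of them (number in brackets), for IL-33 plus dopamine against PBS with and without hashtag 8 and for IL-33 against PBS; both comparisons share the 2 PBS hashtags. The filled blue medians lie between -0.11 and 0.13, and AP-1, immediate early and dissociation genes move from -0.08 to -0.23 when hashtag 8 is left out.

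Antigen presentation, interferon and clock genes included members that lay apart from PBS, several of them at low counts. The 7 tested MHC class II presentation genes had a median of 0.34, and 0.53 without hashtag 8. Cd74, the invariant chain, had 12.2 and 13.1 CPM in PBS, 22 to 29.3 CPM with IL-33 and 25.5, 31.6 and 12.5 CPM with IL-33 plus dopamine, where hashtag 8 again lay in the PBS range. Summed dendritic cell markers were 65.1 and 70.9 CPM in PBS and 80.8, 119 and 72.2 CPM with IL-33 plus dopamine, and their part in these values was not tested. Of 25 interferon response genes, 2 were above and none below PBS, and Ifi27 had 47.2 and 50.6 CPM in PBS, 63.5 to 75.5 CPM with IL-33 and 70.6, 76.2 and 68.1 CPM with IL-33 plus dopamine. Among 24 Krueppel-like and circadian factors, 6 were above and 5 below. Per3, a repressor of the circadian clock, had 4.29 and 10.4 CPM in PBS, 12.0 to 12.6 CPM with IL-33 and 21.0, 21.0 and 19.4 CPM with IL-33 plus dopamine. Per2, its relative, had 2.15 and 1.19 CPM against 4.35, 3.64 and 3.09 CPM, and Nr1d1, which represses the positive arm of the clock, had 8.59 and 14.6 CPM against 7.36, 7.71 and 7.41 CPM. Per2 and Per3 were counted in few UMIs in the PBS hashtags. Hours of tissue collection are not given in the sources used here.

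The direct test of IL-33 plus dopamine against IL-33 passed 3 of 10820 genes (0.0277%), all lower with dopamine, and 1035 genes (9.57%) had an unadjusted p under 0.05, 529 higher (4.89%) and 506 lower (4.68%). Ltb4r1, the receptor for the chemoattractant leukotriene B4 (chromosome 14, 55765962 to 55768494, plus strand), had 208 and 208 CPM in PBS, 313, 293 and 325 CPM with IL-33 and 227, 208 and 184 CPM with IL-33 plus dopamine. All IL-33 hashtags stood above the other 5 hashtags. The log2 fold change was -0.59 ± 0.08 against IL-33 (SE, adjusted p = 0.0234) and -0.05 with an interval of -0.25 to 0.15 against PBS. Without hashtag 8 the direct value was -0.54 and no longer passed (adjusted p = 0.0795), and it was also lost without any single IL-33 hashtag.

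Actn2, an actin crosslinker of the alpha-actinin family (chromosome 13, 12269426 to 12340760, minus strand), had 19.3 and 37.2 CPM in PBS, 44.6, 45.1 and 40.0 CPM with IL-33 and 16.5, 23.7 and 17.6 CPM with IL-33 plus dopamine. All IL-33 hashtags were above the other 5, and hashtags 6 and 8 were below both PBS hashtags. Cd3g, a chain of the CD3 complex of T cells (chromosome 9, 44969572 to 44980431, minus strand), had 40.1 and 83.7 CPM in PBS, 113, 93.7 and 103 CPM with IL-33 and 49.8, 53 and 44.9 CPM with IL-33 plus dopamine. The direct log2 fold changes were -1.16 for Actn2 and -1.07 for Cd3g (adjusted p = 0.0234 for each), and both lost the call under the same 4 omissions as Ltb4r1. The 13 T cell markers in the table summed to 1115 to 1389 CPM with IL-33 and to 1242 to 1271 CPM with IL-33 plus dopamine. Of the 9 that were tested, 1 was above and 4 were below IL-33 without overlap. Shares of cells were counted for Cd3e, Trac and Cd3g alone among the T cell markers. Cd3e had a UMI in at most 2.66% and Trac in at most 5.26% of the cells of any hashtag, and Cd3g in 11.9% to 26.5%. The markers that make up most of the sum have no such share here. The part of T cells in the Cd3g value was not tested. Among the authors' clusters 0 to 3, Cd3g was highest in cluster 1, at 81.4 to 196 CPM. In clusters 0, 2 and 3 it was at 10.5 to 78.9 CPM. Cluster 1 held 389 of 1485, 304 of 1092 and 413 of 1516 cells with IL-33. The dopamine hashtags had 197 of 1252, 259 of 1197 and 172 of 1475 there. PBS had 26 of 311 and 174 of 748. The part of that mix in the summed Cd3g and Actn2 values was not tested.

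By the rule that tops up the direct comparison to 4 genes a direction, Slc6a13 and Mns1 were the next lower genes and St8sia4, Cd27, Foxn3 and Gm43305 the higher ones, and none of the 6 passed in the fit over all hashtags by edgeR. Foxn3, a forkhead repressor, had 97.3 and 103 CPM in PBS, 106 to 109 CPM with IL-33 and 135, 141 and 140 CPM with IL-33 plus dopamine. It stood above all other hashtags by 0.43 ± 0.09 (log2, SE) against PBS and by 0.37 with an interval of 0.21 to 0.53 against IL-33, although other annotated genes overlap its locus. Cd27, a co-stimulatory receptor, had 91.6 and 82.5 CPM in PBS, 65.1 to 78.2 CPM with IL-33 and 113, 94.3 and 113 CPM with IL-33 plus dopamine (direct adjusted p = 0.108). St8sia4, a polysialyltransferase, had 162 and 169 CPM in PBS, 132 to 145 CPM with IL-33 and 181 to 196 CPM with IL-33 plus dopamine (direct adjusted p = 0.0578). DESeq2 called 14 genes in this comparison, among them Slc6a13, Mns1, St8sia4 and Cd27.

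IL-33 against PBS, from the same fit, passed 0 of 10820 genes by edgeR, and 1264 (11.7%) had an unadjusted p under 0.05, 637 higher (5.89%) and 627 lower (5.79%). DESeq2 passed 45 and edgeR without the dopamine hashtags 74. Several genes had like values in both IL-33 groups, with a direct difference near 0. Abhd8, of a hydrolase family, was at 37.2 and 34.5 CPM in PBS, 61.3 to 63.8 CPM with IL-33 and 66.4, 66.2 and 46.8 CPM with IL-33 plus dopamine (direct -0.06, interval -0.30 to 0.17). Cmtm6, known as a stabilizer of PD-L1, was at 82.3 and 74.1 CPM in PBS, 54.4 to 57.1 CPM with IL-33 and 52.1 to 54.5 CPM with IL-33 plus dopamine (direct -0.06, interval -0.24 to 0.12). Ptma, which encodes prothymosin alpha, was at 2269 and 2311 CPM in PBS, 1890 to 1930 CPM with IL-33 and 1833, 1842 and 2016 CPM with IL-33 plus dopamine. Sept1, Mbd1, Tex264 and Egr3 were further genes of this kind, with direct differences between -0.01 and 0.04. These genes were named for a small p against PBS after the values were seen.

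Cells were next compared within the authors' numbered clusters, which keeps differences in the mix of clusters out of the values. Clusters 0 to 4 had at least 20 cells in every hashtag, and cluster 5 had 8 in hashtag 1 and was not fitted. In 37750 tests there were 24 calls at an adjusted p under 0.05 within a cluster, 11 higher and 13 lower than PBS, on 23 genes. Adjustment over all clusters together kept 21 of them, and 1 call held when any single hashtag was left out. Without hashtag 1 there were 10 calls, all lower, and without hashtag 8 there were 98, of which 28 were higher and 70 lower.

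In cluster 3, where Il5, Il13 and Areg had the highest levels of the 5 clusters, 4 of 6566 genes passed (0.0609%). Areg was at 1517 and 2217 CPM in PBS, 3104 to 3627 CPM with IL-33 and 2851, 3505 and 3318 CPM with IL-33 plus dopamine, a log2 fold change of 0.77 ± 0.12 (SE, adjusted p = 0.0045). Il5 was at 1299 and 1701 CPM in PBS, 2036 to 2784 CPM with IL-33 and 2644, 2560 and 2622 CPM with IL-33 plus dopamine, again 0.77 ± 0.12 (adjusted p = 0.0045). Both genes lay above PBS in all 3 dopamine hashtags, and both calls were lost without hashtag 1 alone. Cxcl2, a neutrophil chemokine, was at 1283 and 1725 CPM in PBS, 2580 to 4552 CPM with IL-33 and 3137, 2551 and 3384 CPM with IL-33 plus dopamine (0.99 ± 0.17, adjusted p = 0.0179, but 0.692 by DESeq2), and its call was lost without hashtag 1, 6 or 8. Eprs, a glutamyl-prolyl-tRNA synthetase, was lower, at 1696 and 1549 CPM in PBS and 1019, 964 and 1253 CPM with IL-33 plus dopamine (-0.60, adjusted p = 0.0328). With IL-33 alone it was at 1103 to 1275 CPM, also below PBS. The Eprs call was lost without hashtag 1, 2, 4, 6 or 7. Its adjusted p was 0.0311 by DESeq2 and 0.136 by limma-voom. Il13 had 885 and 1102 CPM in PBS and 1124, 1132 and 1093 CPM with IL-33 plus dopamine in this cluster, which overlapped. The direct log2 differences from IL-33 in cluster 3 were -0.07 for Areg, 0.17 for Il5 and -0.18 for Cxcl2, and none passed.

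In cluster 2, Areg alone passed among 7414 genes (0.0135%). It was at 1294 and 1336 CPM in PBS, 1980, 2094 and 2258 CPM with IL-33 and 2221, 1796 and 1895 CPM with IL-33 plus dopamine. Both IL-33 groups lay above PBS and overlapped with each other. The log2 fold change over PBS was 0.58 ± 0.08 (SE, adjusted p = 0.00047), beside 0.70 for IL-33. Leaving out hashtag 1 ended the call, at a value within 0.49 to 0.64. In clusters 0, 1 and 4, where Areg was at 337 to 885 CPM, its log2 fold changes were 0.14, 0.21 and 0.54 and did not pass.

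**Figure D5:**
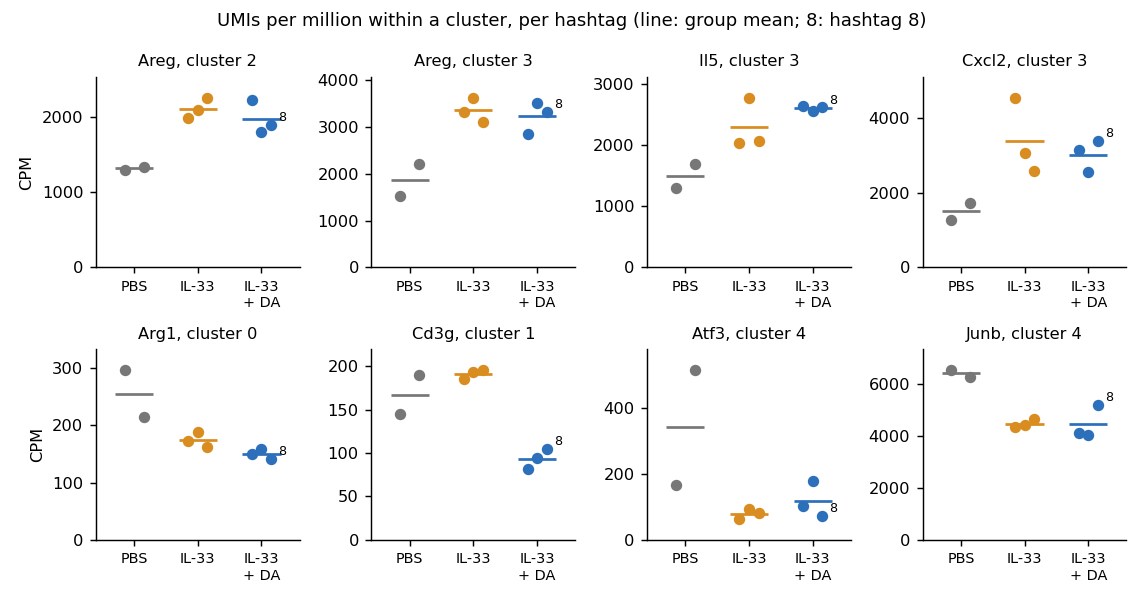
Summed UMIs of the hashtag's cells in a cluster, scaled to a total of 1000000 (CPM, axis from 0), for 7 genes called between IL-33 plus dopamine and PBS in 8 gene and cluster pairs, with the group mean as a line and hashtag 8 marked. Areg and Il5 lie above PBS in both IL-33 groups, Junb lies below PBS, and the 2 PBS values of Atf3 differ widely, at 168 and 517 CPM.

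In cluster 4, 10 of 7317 genes passed (0.137%), 8 of them lower. Junb, an AP-1 subunit, was at 6560 and 6282 CPM in PBS, 4349, 4445 and 4650 CPM with IL-33 and 4114, 4043 and 5213 CPM with IL-33 plus dopamine. Its log2 fold change of -0.56 ± 0.08 (SE, adjusted p = 0.0001) was the call that held in all 8 omissions, between -0.70 and -0.49, and hashtag 8 had the highest of the 3 dopamine values. Mxd1, a partner of MAX that opposes MYC, was at 242 and 238 CPM in PBS and 73.2, 120 and 94.1 CPM with IL-33 plus dopamine (-1.46, adjusted p = 5.8e-05). Hes1, a repressor downstream of Notch, was at 835 and 861 CPM in PBS, 509 to 572 CPM with IL-33 and 254, 398 and 541 CPM with IL-33 plus dopamine (-1.18, adjusted p = 0.00016 by edgeR and 0.356 by DESeq2). Nrip1, a nuclear receptor corepressor, the complement response gene Rgcc and Snhg15, a host gene of small nucleolar RNA, were the others without overlap, together with Nfkbia at 2043 and 2387 CPM in PBS and 1588, 1598 and 1606 CPM with IL-33 plus dopamine (-0.53, adjusted p = 0.00165). Atf3 passed with overlap, at 168 and 517 CPM in PBS and 104, 178 and 73.4 CPM with IL-33 plus dopamine, and its log2 fold change of -1.89 became -0.54 without hashtag 2. Leaving out hashtag 2 ended 8 of the 10 calls. The higher genes were Tnfsf9 and Epcam, with 1 and 1 and with 2 and 5 UMIs in the PBS hashtags.

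Cluster 1 had 7 calls among 8392 genes (0.0834%), and its PBS side rests on few cells, 26 in hashtag 1 and 174 in hashtag 2. Cd3g was at 145 and 190 CPM in PBS, 185, 194 and 196 CPM with IL-33 and 81.4, 94.5 and 105 CPM with IL-33 plus dopamine. Here the dopamine hashtags lay below both other groups, with log2 fold changes of -0.98 against PBS (adjusted p = 0.0212) and -1.06 against IL-33 (adjusted p = 8e-06, 1 of 7 direct calls in this cluster). The direct call for Cd3g held in all 8 omissions, between -1.13 and -0.97, and by DESeq2 (adjusted p = 3.6e-06). Gpr183, a receptor for oxysterols that guides lymphocytes, was at 45.3 and 32.3 CPM in PBS, 76.5 to 97.7 CPM with IL-33 and 86.9, 106 and 73.9 CPM with IL-33 plus dopamine (1.38, adjusted p = 0.0335). Tnfsf8, which encodes CD30 ligand, and Stxbp6, a SNARE-binding protein, were higher from 3 and 4 and from 1 and 8 UMIs in the PBS hashtags. Gm12840, a predicted gene, was lower, and the unnamed transcript 2410006H16Rik higher. Il17a rested on hashtag 1, with 33 UMIs there, 6 in hashtag 2 and 1, 3 and 3 in the dopamine hashtags, and its log2 fold change went from -4.92 to as little as -1.92 when a hashtag was left out. All 7 calls against PBS were lost without hashtag 1 and without hashtag 6, and DESeq2 made none of them.

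Cluster 0, with 2 calls among 8061 genes (0.0248%), was the one where Arg1 passed. Arg1 was at 297 and 214 CPM in PBS, 162 to 188 CPM with IL-33 and 150, 159 and 141 CPM with IL-33 plus dopamine, all below PBS. The log2 fold change was -0.75 ± 0.13 (SE, adjusted p = 0.0147), and the direct difference of -0.24 from IL-33 did not pass. In clusters 1 and 2 Arg1 was also below PBS without overlap (-0.22 and -0.42, neither passing), and in cluster 3 the value was 0.28 with overlap. Ctla2a, an inhibitor of cathepsin L, was at 1234 and 1253 CPM in PBS, 1636 to 1858 CPM with IL-33 and 1785, 1595 and 1830 CPM with IL-33 plus dopamine (0.45, adjusted p = 0.0147). That call was lost without hashtag 1, 2 or 8, and the Arg1 call without hashtag 1. Il5 in cluster 0 was at 109 and 101 CPM in PBS, 66.5, 64.7 and 65.5 CPM with IL-33 and 114, 106 and 103 CPM with IL-33 plus dopamine. The PBS and dopamine hashtags overlapped here (log2 difference 0.01), and the direct difference from IL-33 was 0.69 (adjusted p = 0.0317 by edgeR, 0.279 by DESeq2), 1 of 2 direct calls in this cluster. That difference lay between 0.65 and 0.71 over the 8 omissions and kept its call in 3 of them, those of hashtags 1, 2 and 8. Hashtags 1 and 2 are PBS and not part of the direct comparison. Leaving out hashtag 6 or 7, or any single IL-33 hashtag, ended the call.

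Promoters are shown for 3 of the genes called within clusters, Areg, Cxcl2 and Nfkbia, because each holds a motif of a pathway downstream of IL-33 or of cyclic AMP. These 3 were chosen after the motifs were found. Of the 23 genes called within clusters, 19 had a RefSeq promoter, and 10 of those held at least 1 of the 5 motifs searched. Kappa-B was in 3 of them, CRE in 2, AP-1 in 2, the Gata3 motif in 2 and NFAT in 5. They are RefSeq sequences of build GRCm38.p6, from 250 bases before to 50 bases after the start of the gene, printed in the direction of transcription. Both strands were searched for AP-1 (TGANTCA), the 10-base kappa-B motif with 2 free central bases, CRE (TGACGTCA), the motif of Gata3 and its relatives (AGATAA) and NFAT (TGGAAA), and all matches are in capitals. Areg is at chr5:91139349-91139648, Cxcl2 at chr5:90903649-90903948 (both plus strand) and Nfkbia at chr12:55492598-55492897 (minus strand).
Areg: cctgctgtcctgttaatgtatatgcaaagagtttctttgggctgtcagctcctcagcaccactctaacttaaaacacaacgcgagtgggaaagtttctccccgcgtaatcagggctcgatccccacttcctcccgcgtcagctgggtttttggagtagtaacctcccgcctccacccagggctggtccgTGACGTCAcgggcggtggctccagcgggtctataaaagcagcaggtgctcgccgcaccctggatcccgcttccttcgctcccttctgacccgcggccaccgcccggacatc
Cxcl2: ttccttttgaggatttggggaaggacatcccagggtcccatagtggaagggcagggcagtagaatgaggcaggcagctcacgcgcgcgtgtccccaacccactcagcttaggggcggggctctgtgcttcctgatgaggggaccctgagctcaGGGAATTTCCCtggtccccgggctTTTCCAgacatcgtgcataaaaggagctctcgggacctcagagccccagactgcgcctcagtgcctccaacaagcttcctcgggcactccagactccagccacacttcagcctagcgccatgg
Nfkbia: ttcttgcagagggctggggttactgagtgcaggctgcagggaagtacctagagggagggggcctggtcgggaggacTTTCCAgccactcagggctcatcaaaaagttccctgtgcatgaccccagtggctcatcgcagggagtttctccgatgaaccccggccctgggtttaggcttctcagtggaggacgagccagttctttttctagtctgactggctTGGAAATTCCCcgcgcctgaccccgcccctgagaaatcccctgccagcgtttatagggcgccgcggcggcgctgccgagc

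The Areg promoter held a full CRE match, the palindrome bound by CREB and related factors, starting at -61 from the first base of the gene. Of all 32851 RefSeq promoters of that length, 1.79% held one. Cxcl2 held a pair of overlapping kappa-B matches on opposite strands, the first at -97, and Nfkbia held 1 at -29 that shares bases with an NFAT match. Kappa-B matches were in 1.47% of all promoters and NFAT matches in 21.4%. Nfkbia held a further NFAT match at -174 and Cxcl2 one at -73. AP-1 and GATA motifs, in 7.81% and 11.2% of all promoters, were not in these 3 windows. The matches describe the letters of the windows, and no binding was measured.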

How the data were processed

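The authors deposited UMI counts for 15083 genes in 9076 cells, with hashtag, treatment, cluster number and the percent of mitochondrial UMIs for each cell, which reached at most 7.5 percent per the deposited cell table. The submitters' processing notes name Cell Ranger 6.1.1, Seurat 4.0.2 and build mm10. No source used here says how doublets were treated, and no doublet caller was run.

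UMIs were summed per hashtag and tested with edgeR 4.0.16 in R 4.3.3 (TMM, filterByExpr, quasi-likelihood, 1 fit over all 8 hashtags with treatment as the term), with Benjamini-Hochberg adjustment over 10820 genes and a call at an adjusted p under 0.05. The fit was also run on simulated counts, which held no outlying hashtag and no shift in cluster mix. No result above rests on that run. DESeq2 1.42.0, limma-voom (limma 3.58.1), other scalings, filters, depths and omissions of single hashtags were alternatives. Coordinates came from GENCODE M21. Genes were named by rule: 29 fixed genes, the strongest passing genes against PBS and in each list, of which there were none, and 8 of the direct comparison. Others were named after their values were seen. Of the 29, 2 are not analysed here. Members and lists were chosen with earlier results of these data known.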

Additional observations from a re-analysis of the deposited data

Results flagged for a closer look

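The chemokine gene Cxcl2 stood on opposite sides of PBS in different clusters, and this is why it is listed here. In cluster 3 all 3 IL-33 plus dopamine hashtags were above both PBS hashtags, with a log2 fold change of 0.99. In cluster 0 all 3 were below both, at 874, 831 and 939 CPM against 1407 and 991 CPM, with a log2 fold change of -0.46 (adjusted p = 0.195 by edgeR). The difference between the clusters was not tested, and the values with IL-33 alone were 1.17 and -0.46.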

How the results depend on the processing

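The numbers of genes past the threshold moved between settings. IL-33 plus dopamine against PBS passed 0 genes in every setting except without hashtag 8, where it passed 4 (0 to 4 over the omissions). Against IL-33 the 3 genes became 14 with DESeq2, 11 with no filter, 7 with cells between the 10th and 90th percentile of UMIs and 5 with thinned cells, and 0 to 15 when 1 hashtag was left out. IL-33 against PBS passed 45 genes with DESeq2, 14 with no filter, 74 with the 2 groups alone and 0 to 48 over the omissions. The 24 calls within clusters became 12 with DESeq2, 13 with limma-voom and 12 with the 2 groups alone, and ranged from 10 to 98 over the omissions. Alternatives for clusters and for unthinned shares were chosen after seeing the data, and unthinned cells gave an Il13 share difference of 3.9 percentage points in place of 0.404. The causes were not tested. Of the values of single genes under an alternative, 6567 kept their side, 81 moved, 40 came to pass and 12 no longer passed, and 76 list medians moved while 716 did not. Against PBS, the alternatives put 38 of 183 named genes on both sides of 0, 37 of them with a main interval that holds 0 (Gata3 from -0.09 to 0.17, Calca from -0.47 to 0.20) and Cd3g without (-0.79 to 0.26). With 1 PBS hashtag left out, the other is assumed to vary like the remaining groups. No paired analysis was possible because the hashtags carry no replicate number shared between treatments. Summed UMIs are lowest on the PBS side, where 1059 cells limit every comparison with it. The lowest median UMIs per cell, 4201, were those of hashtag 8.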
